A study of Mus musculus with 6 samples.

Results

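Cholesterol efflux and lipoprotein handling were followed through 10 genes in primary mouse retinal pigment epithelium (RPE), the pigmented cell sheet that lies under the photoreceptors. The genes were chosen by symbol and all 10 were found among the 28043 genes of the tables: Abca1, Abcg1, Apoe, Pltp, Nr1h3, Nr1h2, Mylip, Scarb1, Cd36 and Lrp1. Polyadenylated RNA had been sequenced from 3 PVR libraries, made from mice with proliferative vitreoretinopathy, and from 3 Normal libraries, made from normal mice. Proliferative vitreoretinopathy (PVR) is a scarring disease that follows retinal injury or detachment, and the series title calls this form traumatic. The strain, age and sex of the mice, the way PVR was brought about, its duration, and any pooling of animals are not stated in what was used here. The labels do not say whether libraries of 1 group came from separate mice, so the spread between them may be technical. All 10 genes passed the filter on low counts and entered the test.

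Cells cannot break down the sterol ring, so they rid themselves of cholesterol by exporting it. Abca1 and Abcg1 move cholesterol across the plasma membrane to apolipoprotein acceptors and to high-density lipoprotein (HDL), Apoe supplies an acceptor particle, and Pltp remodels HDL by transferring phospholipid. The liver X receptors LXR-alpha (Nr1h3) and LXR-beta (Nr1h2) sense oxidised sterols and switch on many of these genes, among them Abca1, Abcg1, Apoe, Pltp and Mylip, together with their partners, the retinoid X receptors. Scarb1, Cd36 and Lrp1 are uptake receptors for lipoproteins or their lipids. The RPE takes in membrane lipid every day from shed photoreceptor tips and returns lipid to the retina and to the choroidal circulation, and Apoe, Abca1, Scarb1 and Cd36 have all been studied there.

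The sequences shown here come mainly from Abca1, the best known of these targets, and mark matches to known kinds of regulatory site. LXR bound to a retinoid X receptor recognises a DR4 element, a pair of AGGTCA cores in the same orientation 4 bases apart. The Abca1 promoter (RefSeq, GRCm38.p6, minus strand, chr4:53159846-53160145) is printed in the direction of the gene, and the capitals mark its closest match to a DR4, which reads in the opposite direction from -67 to -52 relative to the start of transcription.

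Abca1 promoter: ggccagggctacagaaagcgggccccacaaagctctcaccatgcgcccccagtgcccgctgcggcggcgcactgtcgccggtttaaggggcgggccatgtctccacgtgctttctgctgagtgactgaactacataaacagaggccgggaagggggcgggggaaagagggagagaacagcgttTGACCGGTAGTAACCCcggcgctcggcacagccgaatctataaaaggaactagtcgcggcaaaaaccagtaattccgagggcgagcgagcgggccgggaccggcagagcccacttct

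Read on the other strand the match is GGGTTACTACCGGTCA, which differs from the consensus by A1G, C5T and A11C, counted from 1 at the first base of the first core. Windows from 250 bases before to 50 bases after the start were searched on both strands for 8 of the 10 genes (11 windows). Abca1 and no other of the 8 had a match with at most 3 mismatches, which 21.9% of all 32851 RefSeq windows also had, and no window of these genes matched with 2 or fewer. A single core AGGTCA was found in the Cd36 window only, against 16.3% of all windows, and the sterol regulatory element TCACNCCAC, the type of site bound by SREBP factors, was found in none, against 1.24% of all windows. Abcg1 and Scarb1 are named only. These are matches of letters and not measured binding sites.

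Abca1 and Abcg1 messages are also known in mice to be repressed by miR-33. Its hairpin lies on chromosome 15 (82198122 to 82198190, plus strand) inside Srebf2, which encodes the sterol-sensing transcription factor SREBP2. The mature miRNA (RefSeq, GRCm38.p6, chr15:82198127-82198147, plus strand) is shown with its seed, bases 2 to 8, in capitals, followed by the sites in the annotated 3′ UTRs with the bases that pair with the seed in capitals.

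mmu-miR-33-5p: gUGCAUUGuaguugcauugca

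Abca1 site at UTR bases 135 to 141: ctgacactattCAATGCAatgcacttcaat

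Abca1 site at UTR bases 140 to 146: actattcaatgCAATGCActtcaatgcaac

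Abca1 site at UTR bases 150 to 156: gcaatgcacttCAATGCAacgagaacacaa

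Abcg1 site at UTR bases 717 to 723: ctaacgcaacgCAATGCAacgcaatgcaga

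Abcg1 site at UTR bases 727 to 733: gcaatgcaacgCAATGCAgacagtgctggg

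Abca1 had 3 seed matches in a 3′ UTR of 3156 bases, the first pair overlapping, and Abcg1 had 2 in 3703 bases. At least 1 match was present in 15.4% of annotated 3′ UTRs between 0.8 and 1.2 times the length of that of Abca1, and in 17.7% of those similarly matched to Abcg1. The other 8 genes had none. The miRNA itself was not measured in these libraries, and the search was added after the expression values had been seen.

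Between 15269983 and 19173187 reads per library had been assigned to genes. Values below are normalised read counts, that is, reads divided by 1 size factor per library, and a log2 change is PVR minus Normal of log2(normalised count + 1), a scale that shrinks changes at low counts. A gene was called when its limma p-value, adjusted over all 15766 genes tested (Benjamini-Hochberg), was under 0.05. On that scale 17.9% of genes tested were called higher in PVR and 12.9% lower, 30.8% in all, and the number called lower dropped to 1307 (against 2033) without Normal replicate 1. Among RPE markers Rpe65, Rlbp1, Rgr and Ttr were abundant in every library (the lowest of these values was 28403, for Rpe65), although Best1 did not exceed 22.8 in any. The RPE marker sum ran from 667748 to 742250 in PVR and from 929166 to 1014972 in Normal libraries. Ttr alone, which was not called, gave 290275 to 313067 of it in PVR and 247884 to 275614 in Normal libraries. The median log2 change of the 17 tested RPE markers was -0.64. Of the macrophage and microglia markers, 25 of 26 rose and Csf1r fell. Their sum was 43987 to 106216 in PVR libraries, with PVR replicate 3 the lowest, and 11550 to 12945 in Normal libraries, of which Csf1r alone made up 9343 to 11181. None of the 26 was at 0 in any library. Of the other marker lists, limma called 1 RPE gene higher and 9 lower of 17 tested, 9 fibroblast genes higher and 1 lower of 13, 3 pericyte genes higher of 9, 1 Müller glia gene higher and 1 lower of 10, and 1 photoreceptor gene higher of 11. In RNA from whole cell preparations, fewer cells of a type and less RNA per cell cannot be told apart.

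Of the 10 genes, 5 rose in PVR (Cd36, Abcg1, Abca1, Nr1h3 and Mylip), 2 fell (Pltp and Scarb1) and 3 were not called (Apoe, Nr1h2 and Lrp1). The libraries of the groups did not overlap for 8 of the 10, against 48% of all genes tested. The median log2 change was 0.33 over the 10 genes and -0.02 over all genes tested. The same 7 calls were made by edgeR, which called 29.8% of all genes tested, and by DESeq2, which called 30.6%. Both LXR-controlled exporters were higher, whereas Pltp, also an LXR target, was lower.

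**Figure D1:**
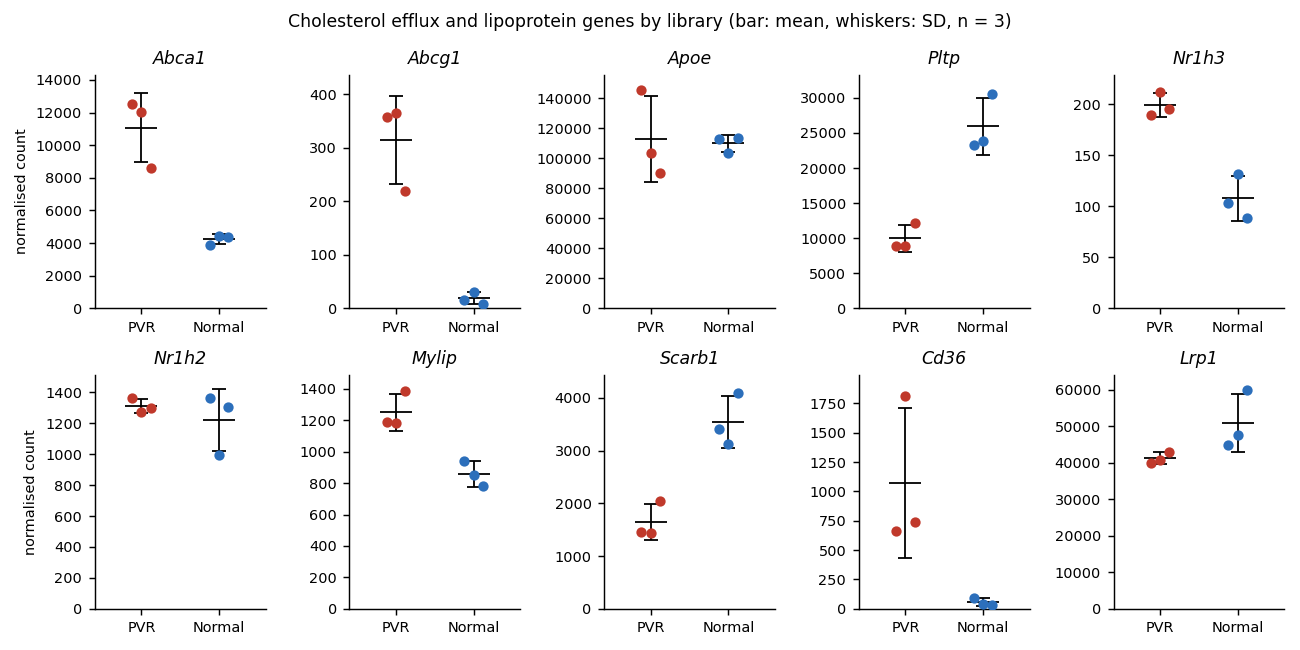
Normalised read counts of the 10 genes in each library, with PVR on the left and Normal on the right of every panel (points are libraries, the bar is the mean and whiskers are the SD, n = 3, and every axis starts at 0). PVR and Normal points are apart for 8 genes and mixed for Apoe and Nr1h2, and Cd36 has 1 PVR library far above the others (PVR replicate 2, 1809.8).

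Both exporters rose. Abca1 (GRCm38, as all coordinates here, chromosome 4, 53030787 to 53159895, minus strand) had 12509.9, 12044 and 8629.6 normalised counts in PVR replicates 1 to 3, against 3914, 4428 and 4405 in Normal replicates 1 to 3. The lowest PVR library, replicate 3, was still far above the highest Normal one. Abca1 averaged 11061 ± 2119 in PVR and 4249 ± 289.9 in Normal libraries (SD, n = 3 each), a ratio of means of 2.60 and a log2 change of 1.36 (SE 0.15, limma adjusted p = 0.00021). Abcg1 (chromosome 17, 31057675 to 31117988, plus strand) had 358, 366 and 219 normalised counts in PVR replicates 1 to 3 and 16.5, 31.5 and 9.06 in Normal replicates 1 to 3, where it rested on 16, 34 and 10 reads. It was scarce in Normal cells and plainly present in every PVR library, again least in PVR replicate 3. Its means were 314 ± 82.6 in PVR and 19.0 ± 11.4 in Normal libraries (SD, n = 3 each), a ratio of 16.5 and a log2 change of 4.10 (SE 0.42, limma adjusted p = 0.000251). Per kilobase of exon, Abca1 exceeded Abcg1 by 24.6, 23.2 and 27.7 times in PVR replicates 1 to 3, and by 167, 99.03 and 342 times in Normal replicates 1 to 3, so that Abca1 remained the more abundant transcript in all 6 libraries.

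Of the LXR genes, Nr1h3 rose and Nr1h2 was not called. Nr1h3, which encodes LXR-alpha (chromosome 2, 91184061 to 91202834), had 189, 212 and 196 normalised counts in PVR replicates 1 to 3, against 103, 132 and 88.8 in Normal replicates 1 to 3. All PVR libraries were above all Normal libraries, and PVR replicate 3 was not the lowest of its group. The means were 199 ± 11.6 in PVR and 108 ± 21.7 in Normal libraries (SD, n = 3 each), a log2 change of 0.90 (SE 0.19, limma adjusted p = 0.00664). Nr1h2, which encodes the more widely expressed LXR-beta (chromosome 7, 44549616 to 44553951), had 1365, 1272 and 1299 in PVR and 1365, 994 and 1306 in Normal replicates 1 to 3. Its groups overlapped, and it was not called (log2 change 0.12, 95% interval -0.17 to 0.41, limma adjusted p = 0.539), with a sign that turned to -0.03 without Normal replicate 2. Nr1h2 stayed the more abundant LXR transcript everywhere, at 5.40, 4.50 and 4.98 times Nr1h3 per kilobase in PVR replicates 1 to 3 and 9.93, 5.67 and 11.03 times in Normal replicates 1 to 3. Nr1h3 therefore made up 16.8 ± 1.28% of LXR transcripts per kilobase in PVR and 10.8 ± 3.64% in Normal libraries (SD, n = 3 each). The groups did not overlap, but Normal replicate 2 came close to PVR replicate 1 at 15.6% (two-sided exact permutation p = 0.1, the smallest that 3 against 3 libraries allow).

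**Figure D2:**
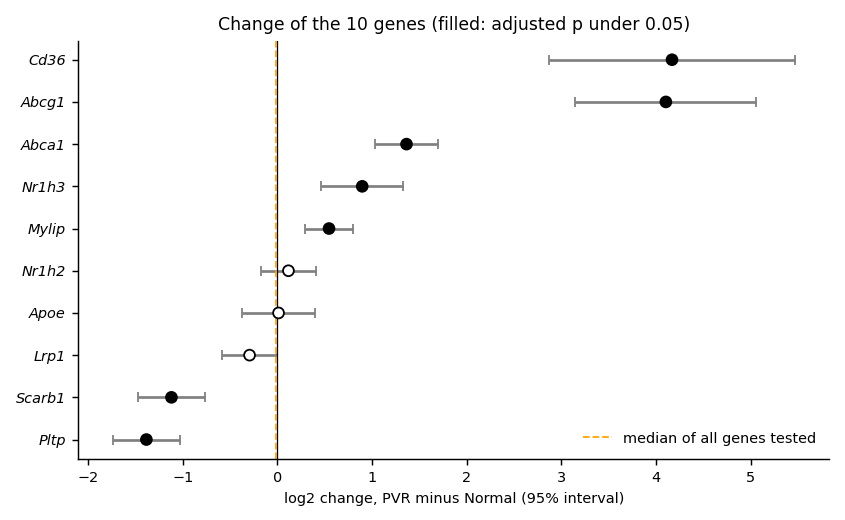
Log2 change of each gene, PVR minus Normal, with its 95% interval from limma (filled points were called, open points were not, and the dashed line is the median of all genes tested). Cd36 and Abcg1 lie furthest to the right at 4.17 and 4.10, and Pltp lies furthest to the left at -1.38.

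Of the secreted lipid carriers, Pltp fell and Apoe was not called. Apoe, which encodes apolipoprotein E (chromosome 7, 19696109 to 19699188), had 145385, 103750.1 and 90268 normalised counts in PVR replicates 1 to 3, against 112932, 103582 and 113585 in Normal replicates 1 to 3. The PVR libraries straddled the Normal ones, with PVR replicate 1 above and PVR replicate 3 below all of them. Apoe was not called (113135 ± 28732 in PVR and 110033 ± 5596 in Normal libraries, SD, n = 3 each, log2 change 0.01, 95% interval -0.37 to 0.39, limma adjusted p = 0.969), and its sign turned to -0.06 with scaling to library totals, to -0.18 without PVR replicate 1 and to -0.03 without Normal replicate 2. It took 0.806%, 0.597% and 0.538% of all reads in PVR replicates 1 to 3, and 0.688%, 0.655% and 0.654% in Normal replicates 1 to 3. Pltp, the phospholipid transfer protein gene (chromosome 2, 164839518 to 164857711), had 8905, 8831 and 12170.4 normalised counts in PVR replicates 1 to 3 and 23332, 23847 and 30598 in Normal replicates 1 to 3. Every PVR library was far below the lowest Normal one, and PVR replicate 3 was the closest. Its means were 9969 ± 1907 in PVR and 25926 ± 4054 in Normal libraries (SD, n = 3 each), a log2 change of -1.38 (SE 0.16, limma adjusted p = 0.000285). Pltp shares 495 of its 2562 exon bases with Ctsa, which encodes lysosomal cathepsin A on the opposite strand, and no source used here says whether reads were counted by strand. Ctsa rose (7894 to 10565 in PVR and 3871 to 4394 in Normal libraries, log2 change 1.17, limma adjusted p = 0.000206), the opposite direction to Pltp.

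The uptake receptors moved in opposite directions. Scarb1 encodes SR-BI, the receptor for selective uptake of HDL cholesteryl ester (chromosome 5, 125277087 to 125341094). It had 1455, 1431 and 2036 normalised counts in PVR replicates 1 to 3, against 3404, 3128 and 4085 in Normal replicates 1 to 3. PVR libraries were all lower, with means of 1641 ± 343 in PVR and 3539 ± 492 in Normal libraries (SD, n = 3 each), a log2 change of -1.12 (SE 0.16, limma adjusted p = 0.000813). Cd36, the scavenger receptor for oxidised lipoprotein and long-chain fatty acids that also takes part in outer segment uptake (chromosome 5, 17781690 to 17888801), had 660.0, 1809.8 and 742 in PVR and 93.8, 43.5 and 35.3 in Normal replicates 1 to 3. All PVR libraries were far above the Normal ones and PVR replicate 2 stood above the other PVR libraries. Cd36 averaged 1071 ± 641 in PVR and 57.6 ± 31.6 in Normal libraries (SD, n = 3 each), a ratio of 18.6 and a log2 change of 4.17 (SE 0.53, limma adjusted p = 0.00255). Per kilobase, Scarb1 stood at 0.931, 0.334 and 1.16 times Cd36 in PVR replicates 1 to 3, and at 15.3, 30.4 and 48.8 times Cd36 in Normal replicates 1 to 3. The lengths used join the exons of all annotated transcripts, 8500 bases for Scarb1 and 3590 for Cd36. A message shorter than its joined exons stands too low on this scale. Whether Scarb1 or Cd36 was the more abundant in PVR is therefore not settled. Endothelial cells also carry Cd36. Of 13 endothelial markers 0 were called by limma, edgeR or DESeq2, against 30.8% of all genes tested by limma, while 2 were higher at an unadjusted limma p under 0.05 and the median log2 change was 0.54. The part of endothelial cells in the Cd36 result was not tested. That list summed to 1180 to 1805 in PVR and 399.7 to 1408 in Normal libraries.

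Lrp1, the large endocytic receptor that clears Apoe-bearing remnants (chromosome 10, 127538161 to 127621148), had 39840.4, 40603 and 43036 normalised counts in PVR replicates 1 to 3, against 44927, 47683 and 59949 in Normal replicates 1 to 3. The groups did not overlap, but Normal replicate 3 was well above its own group, and Lrp1 was not called (log2 change -0.29, SE 0.13, limma adjusted p = 0.12). Scaling to library totals called it lower (log2 change -0.37, limma adjusted p = 0.0414). Mylip, the LXR-induced ubiquitin ligase that sends lipoprotein receptors for degradation (chromosome 13, 45389742 to 45412022), had 1187, 1182 and 1388 in PVR and 942, 850.2 and 783 in Normal replicates 1 to 3. All PVR libraries were higher, PVR replicate 3 most, and Mylip averaged 1253 ± 118 in PVR and 858 ± 79.8 in Normal libraries (SD, n = 3 each), a log2 change of 0.54 (SE 0.11, limma adjusted p = 0.00594). With replicates 1 and 2 of each group alone the Mylip call was lost (log2 change 0.40, limma adjusted p = 0.0558).

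Ranked per kilobase of exon, the 10 genes kept their first 3 places and their last. Apoe led with 52916 ± 13439 normalised counts per kilobase in PVR and 51465 ± 2617 in Normal libraries, followed by Pltp (3891 ± 744 in PVR and 10119 ± 1583 in Normal) and Lrp1 (2323 ± 94.2 in PVR and 2870.3 ± 451 in Normal, SD, n = 3 each). Scarb1 held place 8 in PVR and place 4 in Normal libraries, and Cd36 place 7 in PVR and place 9 in Normal. Such places rest on the joined exon lengths and could differ with the length of the message present. In PVR the library ranges of Nr1h2 and Mylip, of Mylip and Cd36, and of Cd36 and Scarb1 overlapped. In Normal those of Scarb1 and Abca1, and of Abca1 and Nr1h2, overlapped, and all other neighbours in the order were apart. Apoe and Lrp1 together held 83.3% to 87.4% of the reads of the 10 genes in PVR and 80.8% to 82.6% in Normal libraries.

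The 3 PVR libraries were not equal. Without Csf1r, the macrophage markers summed to 75645, 98641 and 35752 in PVR replicates 1 to 3 and to 3088, 1960 and 1764 in Normal replicates 1 to 3. Lyz2 alone gave 32209, 53474 and 16984 of the sums in PVR replicates 1 to 3. The median over all 26 markers was 1246, 1363 and 556 in PVR replicates 1 to 3, the same order as the sums. Among PVR libraries, Abca1 and Abcg1 were lowest in PVR replicate 3. Abca1 was highest in PVR replicate 1, and Abcg1 and Cd36 in PVR replicate 2. Cd36 was lowest in PVR replicate 1 (660.0, against 742 in PVR replicate 3). Pltp and Scarb1 in PVR replicate 3 lay nearest to Normal. Nr1h3 differed little among PVR libraries and Mylip was highest in PVR replicate 3. Macrophages express Abca1, Abcg1, Nr1h3, Cd36 and Apoe, and the part of such cells in these results was not tested. With Normal replicate 2 and PVR replicate 3 both left out, a setting chosen after the data were seen, 5 of the 10 genes were still called higher and 2 lower. Mylip was then only just under the threshold (limma adjusted p = 0.05 after rounding), and Cd36 was near it (limma adjusted p = 0.0421).

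**Figure D3:**
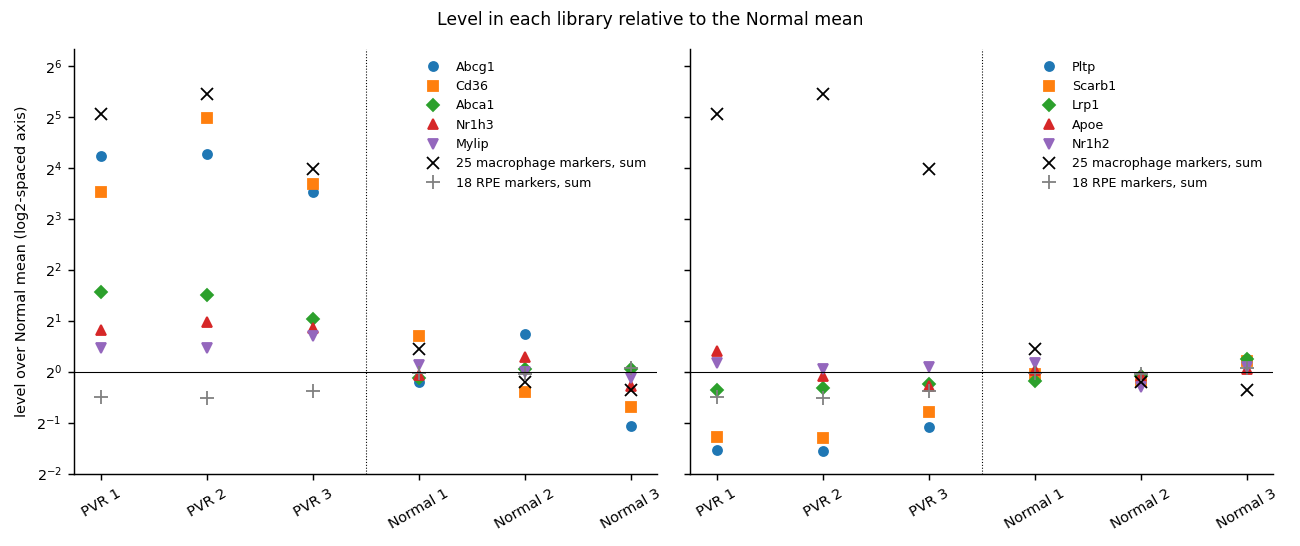
Level of each gene in every library divided by its Normal mean (log2-spaced axis), with the 5 genes called higher on the left and the other 5 on the right, beside the sums of 25 macrophage markers (Csf1r left out) and of 18 RPE markers. The macrophage sum is above the Normal mean in all PVR libraries and lowest there in PVR replicate 3, as are Abca1 and Abcg1, while Mylip is highest in that library and Cd36 is lowest in PVR replicate 1.

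Other genes of the pathway were described from lists, with genes called by the same limma fit. Among 12 tested targets of LXR outside the 10 genes, 5 rose and 2 fell (median log2 change 0.35, against -0.02 over all genes tested). Over all genes tested, 17.9% were called higher and 12.9% lower. Scd1, the stearoyl-CoA desaturase gene, had 866, 1009 and 846 normalised counts in PVR and 283, 271 and 325 in Normal replicates 1 to 3 (log2 change 1.63, limma adjusted p = 4.31e-05). Srebf1, whose product SREBP1 drives fatty acid synthesis, had 9689.5, 11526 and 10709 in PVR and 6991, 5542 and 8166 in Normal replicates 1 to 3 (log2 change 0.64, limma adjusted p = 0.00934). Both groups of libraries were apart for each gene. Lpcat3, a phospholipid-remodelling enzyme gene, rose less (1140.0 ± 97.1 in PVR and 889 ± 94.2 in Normal, limma adjusted p = 0.0413). The small GTPase gene Arl4c (547 ± 221 in PVR and 48.8 ± 46.1 in Normal) and the lipoprotein lipase gene Lpl (496 ± 403 in PVR and 45.7 ± 37.2 in Normal, limma adjusted p = 0.0265) rose with wide spread, and Lpl, like Cd36, was highest in PVR replicate 2 (958). Vegfa, the vascular growth factor gene, fell (7893 ± 856 in PVR and 17511 ± 3465 in Normal), as did the phagocytic receptor gene Mertk. The Lpl call was lost without PVR replicate 1 or Normal replicate 1 or 3, with replicates 1 and 2 only, with limma-voom and with no filter (adjusted p = 0.0605 to 0.0808 over these limma fits). The Arl4c call was lost without PVR replicate 1 or 2 or Normal replicate 1 and with no filter, and the Lpcat3 call without PVR replicate 1 or 2 or Normal replicate 2 or 3 and in 5 of the other alternatives.

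Of 9 tested partners of LXR (receptors, corepressors and coactivators), 1 rose and 1 fell (median log2 change 0.05), against 17.9% of all genes tested called higher and 12.9% lower, so that with so few genes the count does not set the list apart. Rxra, a retinoid X receptor gene, was not called (1180.4 ± 9.65 in PVR and 1024 ± 105 in Normal libraries, limma adjusted p = 0.162). Nrip1, a nuclear receptor corepressor gene, rose (1338 ± 222 in PVR and 793 ± 60.7 in Normal, log2 change 0.74, limma adjusted p = 0.00277), and the coactivator gene Ncoa1 fell (3783 ± 194 in PVR and 4741 ± 129 in Normal, limma adjusted p = 0.0274). The Ncoa1 call was lost without PVR replicate 2 or 3, or any single Normal library. Among oxysterol enzymes, which make or clear LXR ligands and their precursors, 1 of 6 rose (Ebp, 252 ± 18.6 in PVR and 134 ± 34.1 in Normal) and 2 fell. Cyp27a1, the sterol 27-hydroxylase gene, fell (832 ± 108 in PVR and 1149 ± 75.4 in Normal, limma adjusted p = 0.0158, a call lost without PVR replicate 2 or Normal replicate 3), and Ch25h was not called (54.9 ± 29.3 in PVR and 30.9 ± 10.8 in Normal, limma adjusted p = 0.222).

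Of 10 other tested ABC transporters 2 rose and 1 fell, a share near the 30.8% of all genes called: Abca8b (76.3 ± 20.7 in PVR and 11.7 ± 7.88 in Normal) and the multidrug exporter gene Abcg2 (61.0 ± 15.2 in PVR and 22.8 ± 11.4 in Normal, a call lost without PVR replicate 2 or Normal replicate 1 or 3) rose, and Abca5 fell (1262 ± 210.0 in PVR and 2192 ± 304 in Normal, limma adjusted p = 0.00282). Abca7, a close relative of Abca1, was not called (889 ± 55.8 in PVR and 796 ± 89.3 in Normal, limma adjusted p = 0.317). Only 3 of 10 apolipoprotein genes in the tables could be tested. Clu, the clusterin gene, had 171332, 185000.0 and 186130.2 in PVR and 115259.8, 122071 and 145019 in Normal replicates 1 to 3 (log2 change 0.51, limma adjusted p = 0.0133). Apod also rose (1368 ± 351 in PVR and 418 ± 188 in Normal, limma adjusted p = 0.03), but the Apod call was lost without any single PVR library and the Clu call without Normal replicate 1 or 2. Apoc1, which neighbours Apoe in the genome, was too low to test, with 37.1, 12.5 and 9.44 in PVR and 2.06, 7.41 and 4.53 in Normal replicates 1 to 3.

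Of 10 other tested endocytic lipoprotein receptor genes and chaperones, 2 rose and 3 fell (median log2 change -0.10). The shares over all genes tested were 17.9% higher and 12.9% lower. Lrp8, the ApoER2 gene, had 5002, 4609 and 5760.3 in PVR and 9508, 8361 and 9419 in Normal replicates 1 to 3 (log2 change -0.83, limma adjusted p = 0.00073). Vldlr, the very-low-density lipoprotein receptor gene, had 2559, 2837 and 3087 in PVR and 4380.3, 4373 and 4691 in Normal replicates 1 to 3 (log2 change -0.67, limma adjusted p = 0.00129). Both encode proteins known to be degraded through Mylip, but protein was not measured here and a link to Mylip was not tested. The groups did not overlap for either. Sorl1, a sorting receptor gene, rose (8835 ± 873 in PVR and 6727 ± 767 in Normal, limma adjusted p = 0.037), while Stab2 fell at low levels (58.1 ± 14.3 in PVR and 112 ± 17.4 in Normal). The Sorl1 call was lost without PVR replicate 2 or 3 or Normal replicate 1 or 2, and the Stab2 call without PVR replicate 1 or Normal replicate 1 or 3.

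Of 12 other scavenger receptors, 9 rose and 1 fell, with a median log2 change of 3.08, against 17.9% of all genes tested called higher and 12.9% lower. Msr1, the class A receptor gene of macrophages, had 239.9, 297 and 108 in PVR and 10.3, 5.56 and 7.25 in Normal replicates 1 to 3 (log2 change 4.55). Marco had 31.9, 108 and 24.6 in PVR and 0 reads in each Normal library, so the Normal level was at most the 3 reads that a count of 0 allows (2.72 to 3.09 normalised counts). Megf10 (49.5 ± 16.1 in PVR and 4.14 ± 2.34 in Normal), the membrane-bound chemokine gene Cxcl16 (428 ± 166 in PVR and 61.8 ± 28.0 in Normal) and the lysosomal membrane protein gene Scarb2 (3445 ± 379.8 in PVR and 1489 ± 99.2 in Normal) also rose. Scarb2 belongs to the same protein family as Scarb1 and Cd36. Msr1, Marco and Cd68 are macrophage genes, and the macrophage marker sums given above, which include Cd68, were higher in the same libraries. The part of macrophages in the rise was not tested.

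Genes that store and free cholesterol inside the cell rose in part: 7 of 16 rose and 1 fell, with a median log2 change of 0.28. For this list and the next, the shares over all genes tested were 17.9% higher and 12.9% lower. Npc1, which moves cholesterol out of lysosomes, had 1689, 1918 and 1144 in PVR and 566, 519.5 and 580.0 in Normal replicates 1 to 3 (log2 change 1.48, limma adjusted p = 0.000466). Its partner Npc2 was not called (10345 ± 1383 in PVR and 8903 ± 240.2 in Normal, limma adjusted p = 0.21). Soat1, the cholesterol-esterifying enzyme gene, had 5546, 6302 and 6091 in PVR and 3465, 3576 and 3832 in Normal replicates 1 to 3 (log2 change 0.72, limma adjusted p = 0.000727). The lipid-droplet coat gene Plin2 rose (5702 ± 849 in PVR and 2472 ± 312 in Normal, limma adjusted p = 0.000306), and so did the lysosomal acid lipase gene Lipa (3442 ± 892 in PVR and 2105 ± 190.3 in Normal, limma adjusted p = 0.0153), Stard5 and Gramd1a. Tspo fell. The Lipa call was lost without Normal replicate 1. Among 8 tested lipoprotein enzymes and regulators 2 rose (Lpl and Lpcat3) and 2 fell: the lipase inhibitor gene Angptl4 (411 ± 120.4 in PVR and 908 ± 54.9 in Normal, limma adjusted p = 0.00141) and Lcat, which esterifies cholesterol on HDL (43.3 ± 4.52 in PVR and 85.0 ± 23.3 in Normal, limma adjusted p = 0.0316, a call lost without PVR replicate 2 or 3 or Normal replicate 1 or 2).

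**Figure D4:**
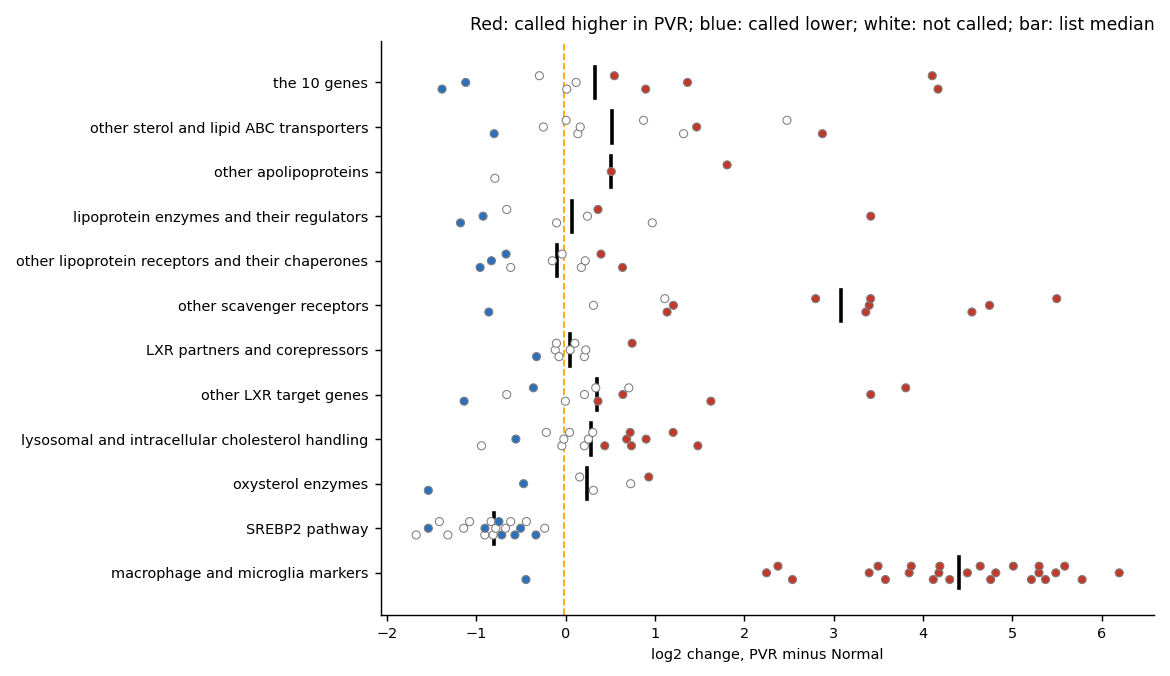
Log2 change, PVR minus Normal, of every tested gene of the 10 and of the pathway lists, with macrophage markers in the last row (red points were called higher, blue lower, white not called, the bar is the list median and the dashed line the median of all genes tested). The scavenger receptor list has its median at 3.08 and the SREBP2 list at -0.80, with 0 of 20 SREBP2 genes called higher, against 17.9% of all genes tested.

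The SREBP2 pathway, which raises cholesterol synthesis when cell sterol is low, contained no gene called higher. Of 20 tested genes 7 fell, and the median log2 change was -0.80 (limma, edgeR and DESeq2 each called 0 higher, and 0 were higher at an unadjusted limma p under 0.05). Over all genes tested, limma called 17.9% higher and 12.9% lower. Scap, the sterol sensor that escorts SREBP2, fell (3311 ± 237 in PVR and 5459 ± 716 in Normal, limma adjusted p = 0.00186), as did Fdft1 (1470.1 ± 44.3 in PVR and 2800.0 ± 625 in Normal), Sqle (778 ± 52.5 in PVR and 1323 ± 259.8 in Normal) and Nsdhl. Srebf2, the host gene of miR-33, had 2698, 2410.0 and 2625 in PVR and 3036, 3102 and 3623 in Normal replicates 1 to 3. All PVR libraries were lower, but its call was narrow (log2 change -0.33, limma adjusted p = 0.0414) and was lost when any single library was left out.

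The Normal libraries differed widely among themselves for many genes of the list. Hmgcs1, the gene of an early synthesis enzyme, had 1473.5, 1713 and 1702 in PVR and 8584, 1653 and 3255 in Normal replicates 1 to 3. Normal replicate 2 lay among the PVR libraries and the other Normal libraries above them, and Hmgcs1 was not called (limma adjusted p = 0.216). Normal replicate 1 was the highest Normal library for 13 of the 20 genes and Normal replicate 2 the lowest for 17. The highest value was a median of 1.22 times the lowest among PVR libraries, against 3.12 times among Normal libraries, and the spread was wider in Normal for 19 of the 20 genes. With all 6 libraries, 10 of the 20 genes had every PVR library below every Normal library, against 23.3% of all genes tested.

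**Figure D5:**
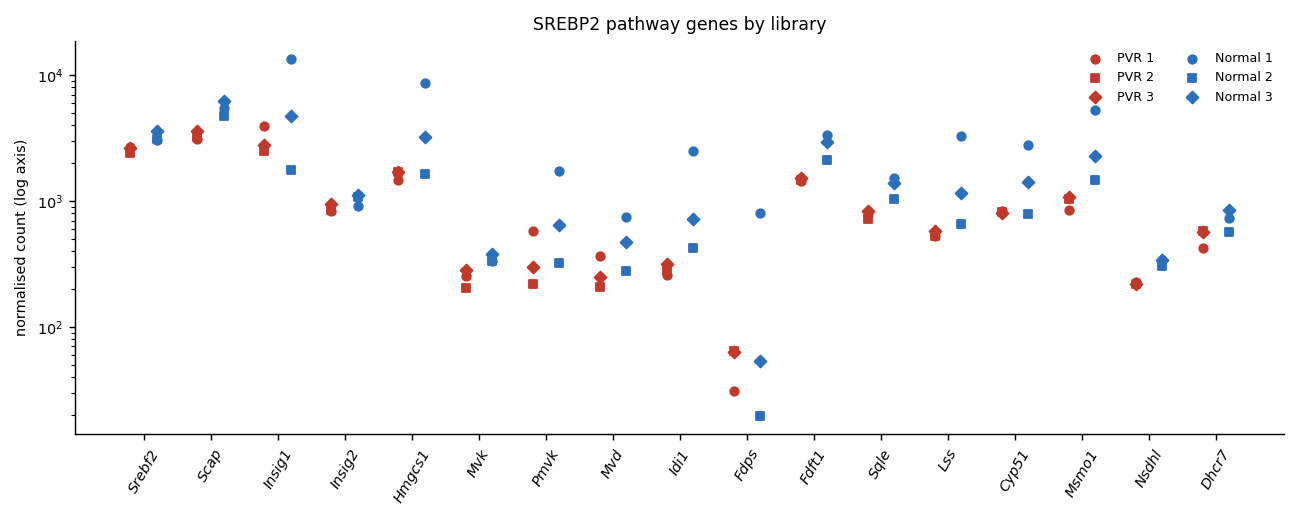
Normalised read counts of 17 SREBP2 pathway genes in each library on a log axis, with PVR (red) left of Normal (blue) at every gene and one symbol shape per replicate number. Normal replicate 1 (circles) is the highest library for Hmgcs1, Idi1 and Lss, whereas the 3 PVR points of those genes lie close together.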

How the data were processed

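TRIzol-extracted polyadenylated RNA of primary RPE was sequenced in 3 PVR and 3 Normal libraries, grouped by their titles. Per gene symbol, the deposited tables hold a normalised signal: whole read counts over a single size factor per library, applied by the authors. This follows from the values: 100% were whole multiples of 1 step per library within 0.001 reads, and the factors equalled recomputed median-ratio factors (ratio 1). The submitters' processing notes list mm10 and DESeq2 with no role. The aligner, read counter, strandedness and gene models were not given in the sources used here. No library repeated another, the lowest chi-square per gene between libraries being 19.9.

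Groups were compared with limma 3.58.1 under R 4.3.3, using log2(normalised count + 1) values, an intensity trend, robust moderation and no block, over the 15766 genes that passed filterByExpr of edgeR (minimum count 10) on the recovered reads. Alternatives included edgeR 4.0.16, which called 4706 genes, and DESeq2 1.42.0, which called 4824, against 4858 by limma. The fits were also run on simulated counts of independent libraries, and the outcome of that run is not given here. Same-numbered libraries deviated together (correlations 0.206, 0.195 and 0.179), as libraries paired or handled together would, but the labels state neither. Replicate 3 of each group was registered later than replicates 1 and 2, and the reason for the correlations was not tested. The main fit and the permutation test used no pairing. A fit with a replicate block is given below as an alternative. The 10 genes and the 17 lists (230 symbols with the 10) were chosen with earlier results of these data known. Named list genes were the called genes with the smallest p, up to 5 per list, and a fixed set of defining genes. Others given to complete a list, Hmgcs1 and Ctsa were chosen after their values were seen. Some list genes are counted in the list totals and not reported here. Exon lengths and coordinates come from GENCODE M21 (GRCm38, also called mm10) and are 1-based. The exon length of a gene joins the exons of all its annotated transcripts. Counting intervals and floors cover counting error only, since PCR copies are not independent molecules.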

Additional observations from a re-analysis of the deposited data

How the results depend on the processing

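The 7 calls among the 10 genes kept their direction and their side of the threshold in the 19 alternatives, except Mylip with replicates 1 and 2 only (log2 change 0.40, limma adjusted p = 0.0558). Mylip was only just under the threshold with Normal replicate 2 and PVR replicate 3 both left out (limma adjusted p = 0.05 after rounding). The log2 changes of the 7 called genes ranged from 1.26 to 1.56 for Abca1, 3.69 to 4.77 for Abcg1, 3.71 to 4.58 for Cd36, 0.77 to 1.06 for Nr1h3, 0.40 to 0.61 for Mylip, -1.59 to -1.26 for Pltp and -1.37 to -1.01 for Scarb1. Lrp1 was called lower with scaling to library totals (-0.37, limma adjusted p = 0.0414), which moved the median of all genes by -0.07. Genes that were not called turned sign: Apoe went to -0.0624 with scaling to totals and lay between -0.18 and 0.16 with single libraries left out, and Nr1h2 lay between -0.0256 and 0.20 with single libraries left out and at -0.0185 with Normal replicate 2 and PVR replicate 3 both left out. The number of genes called lower over all genes was 2033, and 1307 to 2026 with single libraries left out, lowest without Normal replicate 1. With the replicate block no call among the 10 genes changed, and 3079 genes were called higher and 2249 lower over all genes. For 45 list genes under the same alternatives, 781 of the outcomes kept direction and call, 72 lost the call, 2 gained it and none turned sign. Besides single libraries left out, the calls of Sorl1 and Lpcat3 were lost with scaling to totals, those of Apod, Lpl, Arl4c and Lpcat3 with no filter, that of Lpl with limma-voom, and those of Lpcat3, Sorl1, Ncoa1, Lipa, Cyp27a1 and Srebf2 with no trend or robust moderation. Leaving out both Normal replicate 2 and PVR replicate 3 also ended the Srebf1 call (limma adjusted p = 0.061). Few reads limit Abcg1 in Normal libraries (10 to 34).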
